A study of Mus musculus with 8 samples.

Results

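The genes described here are the subunits of the transcription factor NF-κB, the inhibitors that its own activity induces, and a set of its known target genes, as measured in the livers of ethanol-fed mice labelled as hepatocyte Ripk1 knockouts or controls. They were chosen by name, as the rows of the count table whose symbol was on a list of 34 genes, out of 55335 genes in all. The tested livers came from 4 Ripk1-hepKO mice (28, 34, 37 and 39), labelled as hepatocyte-specific Ripk1 knockouts, and the controls from 4 Ripk1-Con mice (29, 32, 40 and 41). All 8 were female, each was a separate animal, and all had the chronic-plus-binge ethanol model of the NIAAA, in which a period on an ethanol liquid diet ends with a single gavage of ethanol, so every difference below is one between genotypes under ethanol. The labels give neither the Cre line, the floxed allele nor the age, and livers without ethanol were not analysed here. Values of a group are given in the order of mouse number throughout. The question behind the comparison, from the series title, is whether hepatocyte RIPK1 limits inflammation and cell death in alcohol-fed liver.

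NF-κB proteins sit in the cytoplasm, bound by inhibitors of the IκB family, until a receptor for TNF, IL-1 or bacterial products activates the IKK kinases, which mark the inhibitor for destruction. RELA paired with the product of Nfkb1 carries this canonical arm, while RELB paired with the product of Nfkb2 carries a slower, non-canonical arm that is held down by TRAF3 and the cIAP proteins. Among the first genes switched on are those for IκB proteins, A20 and cIAP2, which turn the signal off again or reshape it. RIPK1, once ubiquitinated at the TNF receptor, is one of the scaffolds on which IKK assembles, and in liver the targets include adhesion molecules of endothelium and cytokines of Kupffer cells and other leukocytes as well as genes of the hepatocyte itself.

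The libraries held 28038390 to 67328158 counts. Ripk1 itself stood at 23.1 to 38.1 CPM (counts scaled to a common library total, adjusted between libraries by the TMM method) in Ripk1-hepKO and 27.8 to 53.6 CPM in Ripk1-Con, with overlapping groups and -0.21 ± 0.22 (SE) as its log2 fold change (edgeR quasi-likelihood test, Benjamini-Hochberg adjusted p = 0.866), so the count of the whole gene did not check the labels. The tissue label was met by hepatocyte markers such as Alb and Apoa1, whose list of 7 summed to 65218 to 88542 CPM in Ripk1-hepKO and 93972 to 110666 CPM in Ripk1-Con; 0 of the 7 had a log2 fold change above 0. Stellate cell markers summed to 328 to 403 CPM in Ripk1-hepKO and 278 to 335 CPM in Ripk1-Con (7 of 7 above 0). Neutrophil markers summed to 10.3 to 49.2 CPM in Ripk1-hepKO and 3.85 to 33.4 CPM in Ripk1-Con (6 of 6 tested markers above 0, with Ly6g at 0 counts in 3 livers), monocyte markers to 58.7 to 104 and 27.6 to 94.4 CPM (6 of 6), cholangiocyte markers to 15.4 to 62.7 and 13.5 to 34.5 CPM (5 of 5), Kupffer cell markers to 179.6 to 279 and 69.8 to 317 CPM (5 of 6) and endothelial markers to 155 to 242 and 118 to 213 CPM (5 of 8). T and NK cell markers summed to 1.52 to 3.50 and 1.89 to 2.97 CPM (2 of 4 tested markers above 0). B cell markers summed to 0.289 to 1.45 and 0.210 to 1.71 CPM (1 of 2), and erythroid markers to 126.7 to 343 and 171.9 to 418.8 CPM (0 of 3). The part of these markers in the results below was not tested. In whole liver more cells of a type and more RNA per cell cannot be told apart.

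The short DNA motif that NF-κB binds, the κB consensus, was looked up in the promoters to show which of the genes carry it near their start. RefSeq promoters on GRCm38.p6, from 250 bases before to 50 after the start, were given for 28 of the 34 genes, and 16 of these (57.1%) had a match on either strand in at least 1 promoter window, against 9.55% of 27025 genes. By window, 18 of 37 member windows had a match, against 8.46% of all windows. A match is a run of letters and not a measured binding site. The following matches, in capitals within their surroundings and on the strand of the gene, were chosen to set genes with an unadjusted p under 0.05 beside genes without.
Nfkb2, chr19:46304688-46304717 (+): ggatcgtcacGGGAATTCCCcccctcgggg
Tnfaip3, chr10:19015403-19015432 (-): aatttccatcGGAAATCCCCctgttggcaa
Csf1, chr3:107760604-107760633 (-): gggccttgagGGAAAGTCCCtaggggccag
Traf3, chr12:111166350-111166379 (+): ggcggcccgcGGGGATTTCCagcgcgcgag
Nfkbia, chr12:55492657-55492686 (-): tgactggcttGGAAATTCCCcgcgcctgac
Rel, chr11:23771042-23771071 (-): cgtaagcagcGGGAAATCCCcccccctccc
Irf1, chr11:53769991-53770020 (+): agtccgggccGGGGAATCCCgctaagtgtt
Sod2, chr17:13007746-13007775 (+): cggggcggacGGGGTTCCCCgaggcggggc
Nfkb2, Tnfaip3, Csf1 and Traf3 were among the 11 genes with the smallest p-values below, whereas Nfkbia, Rel, Irf1 and Sod2 were not. A match did not sort the genes: it was found in 4 of the 10 members with an unadjusted p under 0.05 for which a promoter was given, and in 10 of the 14 other tested members. Whole promoters are printed for Nfkb2, which has 3 matches in this window, a pair of them overlapping, for Nfkbia, with 1 match, and for Birc3, which had one of the smallest p-values and has no match to these letters in this window.
Nfkb2, chr19:46304487-46304786 (+): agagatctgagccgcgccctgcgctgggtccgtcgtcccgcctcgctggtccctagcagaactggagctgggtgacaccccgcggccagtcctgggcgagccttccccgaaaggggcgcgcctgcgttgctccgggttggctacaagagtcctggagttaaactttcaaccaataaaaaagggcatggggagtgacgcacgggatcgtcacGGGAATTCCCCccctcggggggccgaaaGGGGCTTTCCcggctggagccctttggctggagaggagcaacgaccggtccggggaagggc
Nfkbia, chr12:55492598-55492897 (-): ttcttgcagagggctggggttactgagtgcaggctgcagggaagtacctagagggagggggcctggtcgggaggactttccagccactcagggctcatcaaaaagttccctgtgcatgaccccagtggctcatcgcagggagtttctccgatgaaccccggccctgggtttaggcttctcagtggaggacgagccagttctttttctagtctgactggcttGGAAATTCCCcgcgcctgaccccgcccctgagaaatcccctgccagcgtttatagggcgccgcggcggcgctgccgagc
Birc3, chr9:7873121-7873420 (-): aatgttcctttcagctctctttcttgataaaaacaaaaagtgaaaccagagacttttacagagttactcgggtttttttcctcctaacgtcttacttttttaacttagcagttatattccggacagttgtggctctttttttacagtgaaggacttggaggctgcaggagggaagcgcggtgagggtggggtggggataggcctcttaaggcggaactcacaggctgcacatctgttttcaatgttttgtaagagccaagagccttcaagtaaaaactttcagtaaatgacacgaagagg

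No NF-κB gene passed the threshold between the genotypes, and most stood somewhat higher in Ripk1-hepKO. Of the 34 genes, 28 had enough counts to be tested and 6 (Sele, Il6, Osm, Lif, Ptgs2 and Nos2) did not. By edgeR's quasi-likelihood test, 0 of the 28 passed an adjusted p of 0.05 over all 15234 genes tested, where the background was also 0% of all genes; the lowest adjusted p of a member was 0.742. The DESeq2 Wald test called 0 members too, against 0.236% of all genes, but gave no adjusted p for Il1b. A log2 fold change above 0 was found for 24 of the 28, against 51.8% of all genes tested, and the median over the 28 was 0.49, against 0.01 over all genes tested. Of the 28, 11 members were higher with an unadjusted p under 0.05, against 3.86% of all genes, and 0 were lower, against 2.82%. In 6 members (Nfkb2, Birc3, Selp, Csf1, Il1b and Il1a) every Ripk1-hepKO liver lay above every Ripk1-Con liver, against 2.01% of all genes. In 0 members did every Ripk1-hepKO liver lie below, against 2.09%. With CPM scaled by library size alone, 9 members had groups that did not overlap. The share of all genes was not computed under that scaling, so whether the rise is particular to the members was not tested. The median log2 fold change of all genes tested was 0.04 under it, against 0.01 in the main fit. All 28 tested members had reached the level of the filter in all 4 livers of both groups, so none was admitted through 1 group alone.

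One Ripk1-hepKO liver weighed on these values. Mouse 28 had the highest level of the 8 livers in 19 of the 28 members, against 26.3% of all genes, and the lowest in 0 members, although it was lowest for 26.8% of all genes. At the other end, Ripk1-Con mouse 40 had the lowest level in 13 members, against 14.7% of all genes. Mouse 28 also had the largest sums of neutrophil (49.2 CPM), monocyte (104 CPM), cholangiocyte (62.7 CPM) and stellate cell markers (403 CPM). Its sums of hepatocyte (65218 CPM), T and NK cell (1.52 CPM) and erythroid markers (126.7 CPM) were the smallest of the 8 livers. Mouse 40 had the smallest sums of neutrophil, monocyte, cholangiocyte and stellate cell markers (3.85, 27.6, 13.5 and 278 CPM) and of Kupffer cell markers (69.8 CPM). Without mouse 28, 22 of the 28 members lay above 0, against 50.7% of all genes, their median was 0.31, and 10 were higher with an unadjusted p under 0.05, against 2.70% of all genes. Without mice 28 and 40 together, 20 lay above 0 (50.7% of all genes), the median was 0.27, 5 members were higher with an unadjusted p under 0.05 (4.67% of all genes), and 2, Rel and Il1rn, were lower (4.82% of all genes). In the plot of fold changes the value without mouse 28 is the lower one for 24 of the 28 genes.

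**Figure D1:**
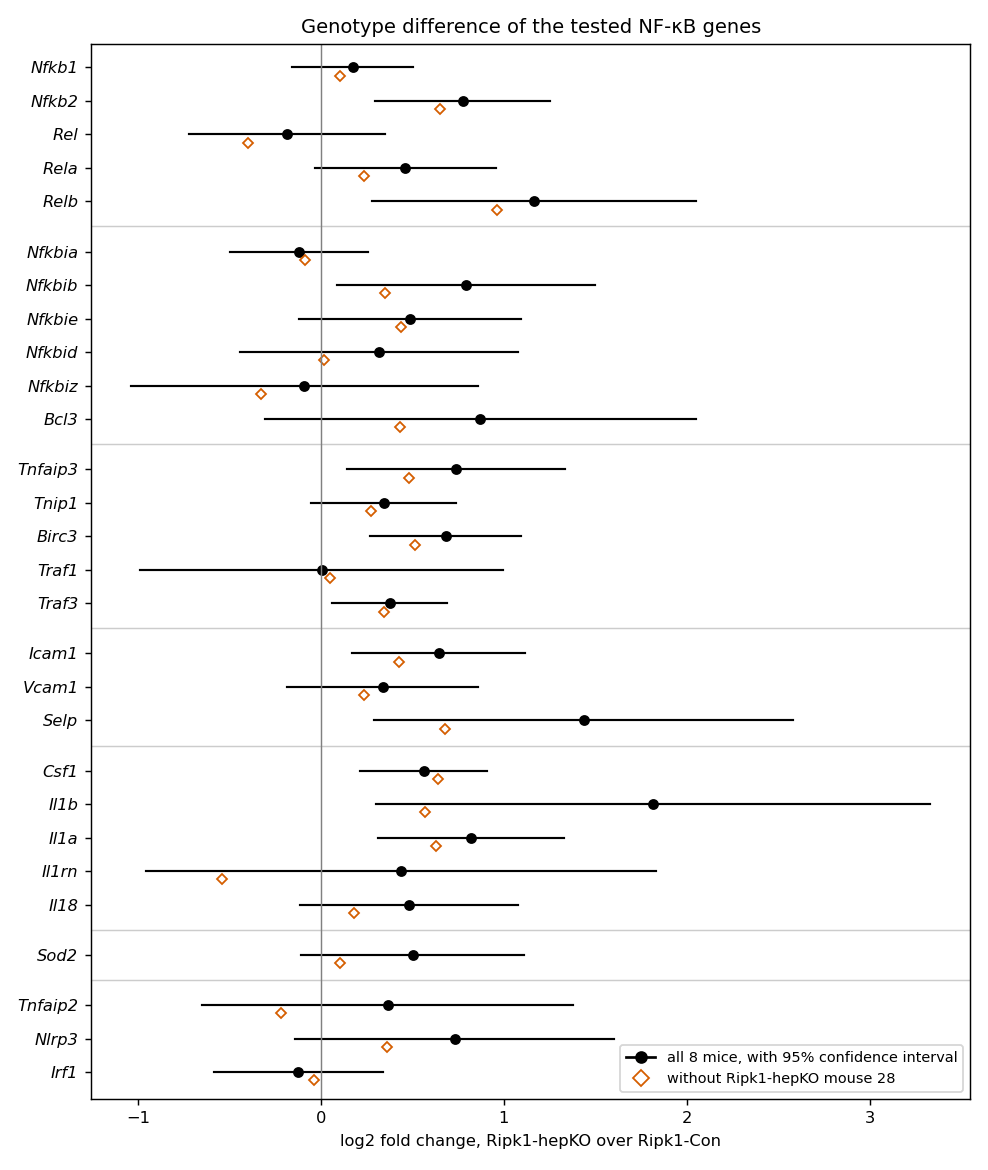
Log2 fold change (Ripk1-hepKO over Ripk1-Con, horizontal axis) of the 28 tested NF-κB genes, grouped by role from subunits at the top to other targets at the bottom. Black points with bars give the estimate from all 8 mice with its 95% confidence interval, and open diamonds the estimate without mouse 28; the interval lies above 0 for 11 genes, and the diamonds of Il1b and Selp stand far left of their black points.

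**Figure D2:**
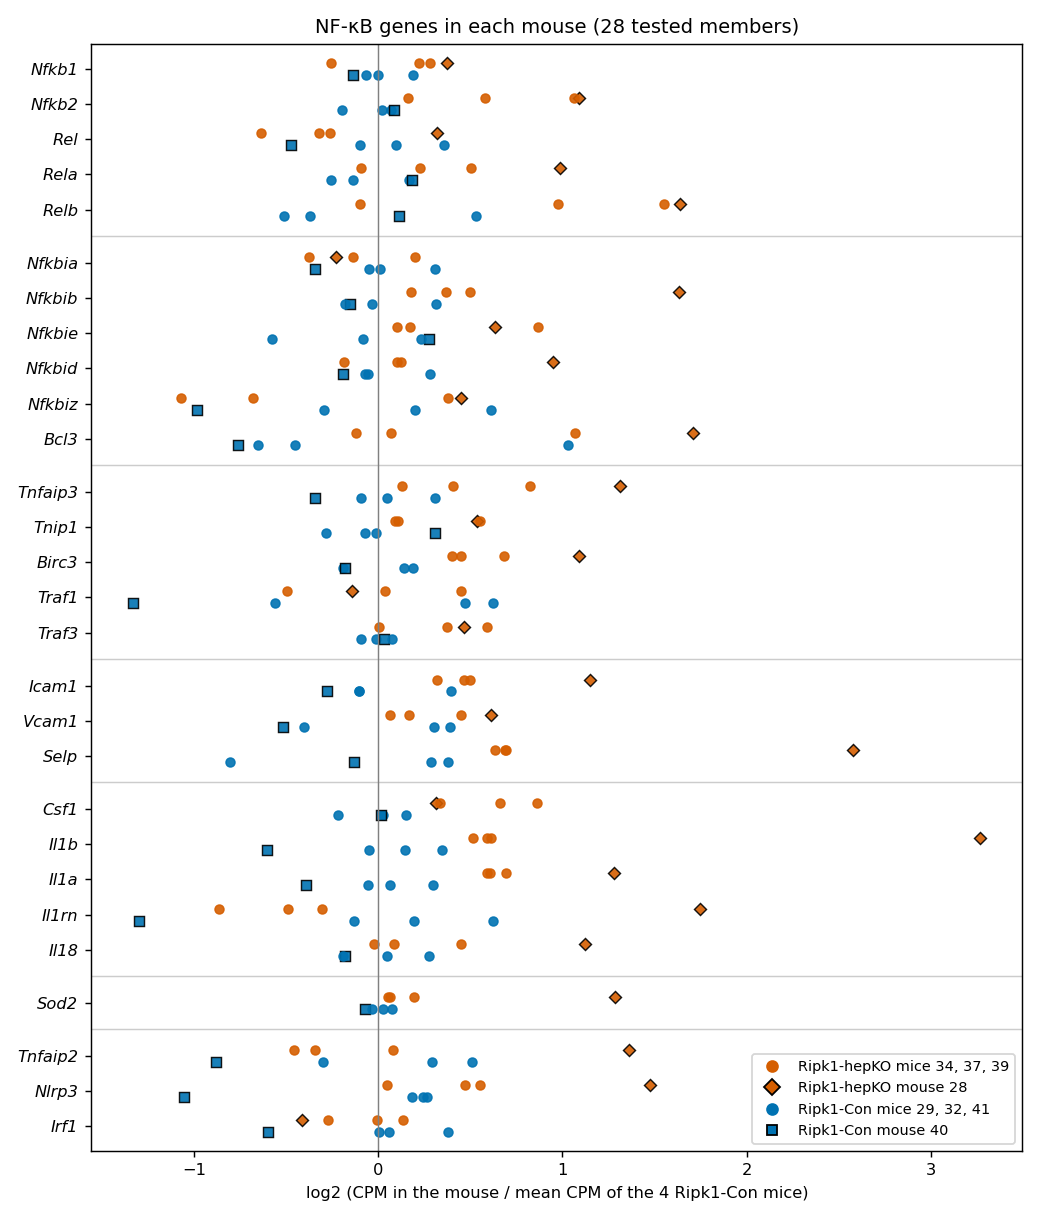
Level of each tested NF-κB gene in each mouse, as log2 of its CPM over the mean CPM of the Ripk1-Con livers (horizontal axis); orange points are Ripk1-hepKO livers, with mouse 28 as a diamond, and blue points beneath are Ripk1-Con livers, with mouse 40 as a square. Mouse 28 is the rightmost point for 19 genes and mouse 40 the leftmost for 13.

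Among the subunits, those of the non-canonical arm had the largest values and Rel lay below 0. Per kilobase of annotated exon, Rela was the most abundant subunit at 13.1 CPM per kb over all livers. It was followed by Nfkb1 (2.203), Nfkb2 (1.78), Rel (1.21) and Relb (0.68 CPM per kb). The length joins all annotated exons of a gene, 12061 bases for Nfkb1 and 3072 for Rela, so genes compare only roughly on this scale. Nfkb1 also overlaps Gm43430 on its own strand. Nfkb2, the precursor of the non-canonical subunit (ENSMUSG00000025225, plus strand of chromosome 19, 46304320 to 46312385 in GRCm38), had 12.8, 8.98, 6.73 and 12.6 CPM in Ripk1-hepKO livers, against 5.25, 6.30, 6.38 and 6.10 CPM in Ripk1-Con livers. The groups did not overlap, though the lowest Ripk1-hepKO liver, mouse 37, was close to the controls. The log2 fold change was 0.77 ± 0.21 (SE; 95% interval 0.30 to 1.25; edgeR adjusted p = 0.742), and 0.65 without mouse 28. The gene overlaps Psd on the opposite strand, and 13 members in all overlap a gene on the strand opposite to theirs, among them Traf3, Icam1, Vcam1, Selp, Il1b and Il1a. Relb, its partner (ENSMUSG00000002983, chromosome 7, 19606217 to 19629438, minus strand), stood at 5.08, 3.21, 1.52 and 4.76 CPM in Ripk1-hepKO and at 1.14, 1.26, 1.76 and 2.35 CPM in Ripk1-Con. Mouse 37 lay among the controls and the other 3 Ripk1-hepKO livers lay above them all. The log2 fold change of Relb was 1.17 ± 0.39 (SE; interval 0.28 to 2.05; edgeR adjusted p = 0.742) and remained 0.96 without mouse 28.

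Rela, the main activating subunit (ENSMUSG00000024927, chromosome 19, 5637483 to 5648130, plus strand), stood at 66.8, 47.9, 31.6 and 39.5 CPM in Ripk1-hepKO livers, against 30.7, 37.8, 38.3 and 28.3 CPM in controls, and the groups overlapped through mouse 37. On the log2 scale the difference was 0.46 ± 0.22 (SE; adjusted p in edgeR = 0.756), and 0.23 without mouse 28. Nfkb1, the precursor of RELA's usual partner (ENSMUSG00000028163, chromosome 3, 135584655 to 135691547, minus strand), had 32.3, 29.2, 20.9 and 30.3 CPM in Ripk1-hepKO and 28.4, 23.8, 22.7 and 24.9 CPM in Ripk1-Con, or 0.17 ± 0.15 as a log2 fold change (edgeR adjusted p = 0.825), and 0.10 without mouse 28. Mouse 37 was the lowest of all 8 livers here. Rel, the subunit best known from lymphocytes and myeloid cells (ENSMUSG00000020275, chromosome 11, 23736847 to 23770970, minus strand), had 11.9, 6.16, 7.99 and 7.65 CPM in Ripk1-hepKO livers and 8.93, 12.2, 6.91 and 10.2 CPM in Ripk1-Con livers. Apart from mouse 28, the Ripk1-hepKO livers lay in the lower part of the range, and the log2 fold change of -0.18 ± 0.24 (edgeR adjusted p = 0.893) was -0.40 without mouse 28 and -0.53 without mice 28 and 40.

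**Figure D3:**
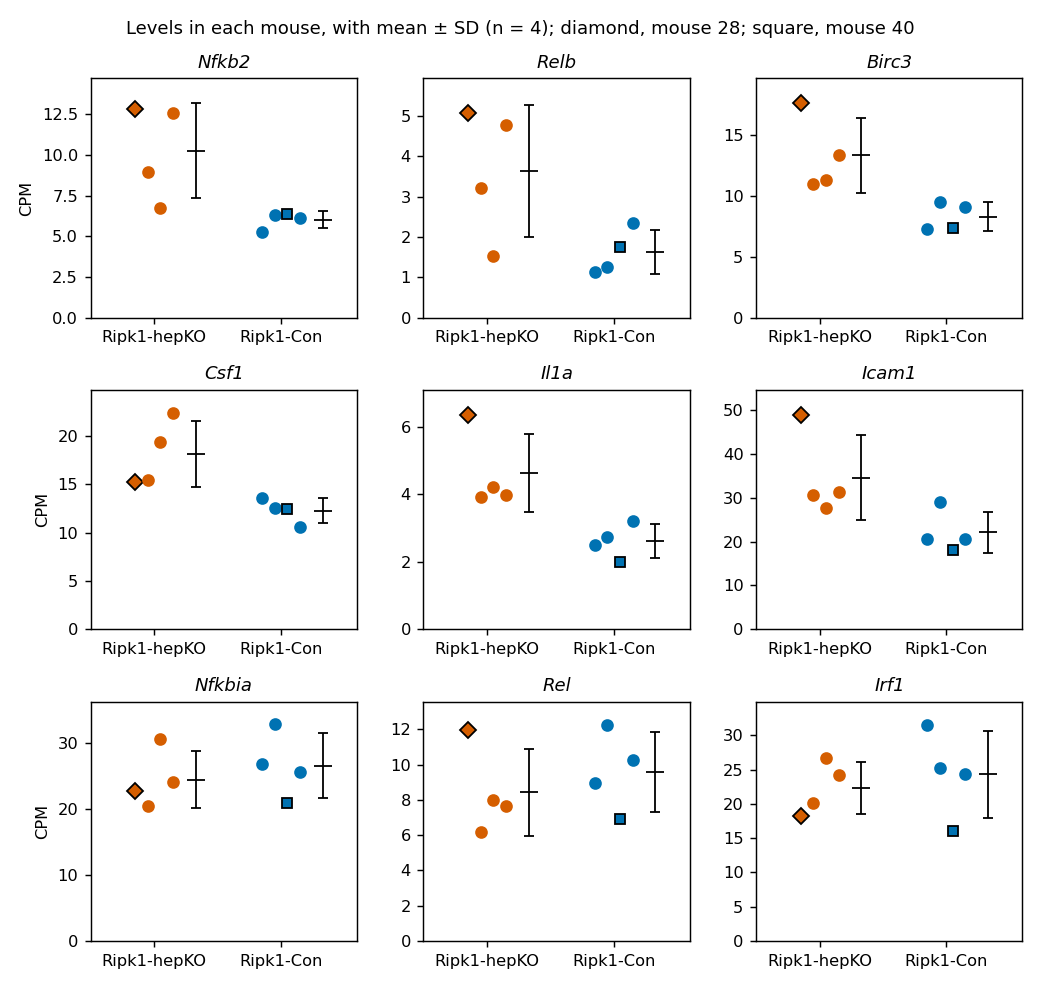
CPM (vertical axis, from 0) of 9 NF-κB genes in each liver, Ripk1-hepKO left and Ripk1-Con right, with the mean ± SD of the 4 livers as bars; mouse 28 is a diamond and mouse 40 a square. Nfkb2, Birc3, Csf1 and Il1a are separated between the groups, whereas Nfkbia, Rel and Irf1 overlap with Ripk1-hepKO means just under those of Ripk1-Con.

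The genes of the IκB family differed among themselves, and the best known inhibitor among them did not stand higher. Nfkbia, which encodes IκBα, the first inhibitor to be remade after NF-κB is activated (ENSMUSG00000021025, chromosome 12, 55489410 to 55492647, minus strand), had 22.7, 20.5, 30.6 and 24.2 CPM in Ripk1-hepKO livers, against 26.8, 32.99, 20.99 and 25.6 CPM in Ripk1-Con livers. The groups lay over each other, at 24.5 ± 4.34 and 26.6 ± 4.94 CPM (SD, n = 4 each). Its log2 fold change was -0.12 ± 0.17 (SE; edgeR adjusted p = 0.900), and the 95% interval ran from -0.50 to 0.26, so values above 0.26 lay outside it. By level per kilobase, Nfkbia (15.9 CPM per kb) and the nuclear co-regulator Bcl3 (13.5) were the most abundant genes of the family. Nfkbid was the least abundant (0.24 CPM per kb).

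Nfkbib, which encodes IκBβ (ENSMUSG00000030595, chromosome 7, 28758251 to 28767512, minus strand), had 34.6, 15.8, 14.4 and 12.6 CPM in Ripk1-hepKO and 10.9, 13.9, 10.03 and 9.83 CPM in Ripk1-Con. Mouse 28 stood far above every other liver, and 3 of the 4 Ripk1-hepKO livers lay above all controls. Its log2 fold change was 0.79 ± 0.31 (edgeR adjusted p = 0.742) and 0.35 without mouse 28; the gene overlaps Sirt2 on the opposite strand. Nfkbie, which encodes IκBε (ENSMUSG00000023947, chromosome 17, 45555703 to 45563169, plus strand), had 2.77, 2.01, 1.92 and 3.25 CPM in Ripk1-hepKO and 1.68, 1.196, 2.16 and 2.09 CPM in Ripk1-Con, or 0.49 ± 0.27 as a log2 fold change (edgeR adjusted p = 0.770) with overlapping groups. The nuclear members of the family also overlapped. Bcl3 ranged from 21.6 to 76.8 CPM in Ripk1-hepKO and from 13.8 to 48.0 CPM in Ripk1-Con, Nfkbiz from 9.80 to 28.1 and from 10.4 to 31.6 CPM, and Nfkbid from 0.433 to 0.953 and from 0.432 to 0.599 CPM, with log2 fold changes of 0.87, -0.09 and 0.32. Without mouse 28 these were 0.43, -0.33 and 0.02, and without control mouse 32 Bcl3 was at 1.49. Of the 6 IκB family genes, nuclear members included, 4 lay above 0. The median of the 6 was 0.40, or 0.18 without mouse 28.

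Of the 5 ubiquitin and TRAF genes, 4 had log2 fold changes of 0.34 to 0.74 and Traf1 lay at 0. Birc3, which encodes cIAP2, a ubiquitin ligase of the TNF receptor complex and a negative regulator of the non-canonical arm (ENSMUSG00000032000, chromosome 9, 7848699 to 7873186, minus strand), had 17.7, 10.98, 11.3 and 13.3 CPM in Ripk1-hepKO livers, against 7.27, 9.49, 7.34 and 9.14 CPM in Ripk1-Con livers. The groups did not overlap. The difference of 0.68 ± 0.18 on the log2 scale (SE; 95% interval 0.27 to 1.09; edgeR adjusted p = 0.742) had the smallest unadjusted p of the 28 members (0.00453), and it ranged from 0.52 to 0.77 with each mouse left out in turn. Tnfaip3, which encodes the ubiquitin editor A20 (ENSMUSG00000019850, chromosome 10, 19000910 to 19015657, minus strand), had 11.5, 6.13, 5.07 and 8.21 CPM in Ripk1-hepKO and 4.79, 5.74, 3.65 and 4.35 CPM in Ripk1-Con. Mouse 37 was within the control range and the other 3 were above it. For A20 the log2 fold change was 0.74 ± 0.27 (edgeR adjusted p = 0.742), and 0.48 without mouse 28. Traf3, the adaptor that keeps the non-canonical kinase NIK unstable, ranged from 11.1 to 16.7 CPM in Ripk1-hepKO and from 10.4 to 11.7 CPM in Ripk1-Con, a log2 fold change of 0.38 ± 0.14. Tnip1, a partner of A20, ranged from 9.44 to 13.0 CPM in Ripk1-hepKO and from 7.26 to 10.96 CPM in Ripk1-Con (log2 fold change 0.34 ± 0.17). Traf1, an adaptor of low level, averaged 0.669 ± 0.183 CPM in Ripk1-hepKO and 0.668 ± 0.367 CPM in Ripk1-Con (SD, n = 4 each). The edgeR adjusted p was 0.742, 0.769 and 0.998 for these 3 genes.

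Adhesion genes, which endothelium displays to draw leukocytes, were higher in the mean in Ripk1-hepKO. Icam1, a ligand of leukocyte integrins (ENSMUSG00000037405, chromosome 9, 21015985 to 21028817, plus strand), had 49.0, 30.5, 27.6 and 31.2 CPM in Ripk1-hepKO livers, against 20.6, 29.1, 18.2 and 20.6 CPM in Ripk1-Con livers. Of the Ripk1-hepKO livers, mouse 37 alone lay within the control range, just under mouse 32. For Icam1 the log2 fold change was 0.64 ± 0.21 (SE; edgeR adjusted p = 0.742) and 0.43 without mouse 28. Vcam1, the ligand of integrin VLA4 (ENSMUSG00000027962, chromosome 3, 116109949 to 116129688, minus strand), had 20.5, 14.1, 15.0 and 18.3 CPM in Ripk1-hepKO and 10.2, 17.6, 9.37 and 16.6 CPM in Ripk1-Con, and the groups overlapped (log2 fold change 0.34 ± 0.23, edgeR adjusted p = 0.792). Selp, which encodes the P-selectin of endothelium and platelets (ENSMUSG00000026580, chromosome 1, 164115264 to 164150026, plus strand), had 8.27, 2.23, 2.15 and 2.24 CPM in Ripk1-hepKO and 1.80, 0.792, 1.26 and 1.69 CPM in Ripk1-Con. The groups did not overlap, and mouse 28 lay far above the other 3, which were nearly equal. The log2 fold change, 1.44 ± 0.51 (edgeR adjusted p = 0.742), was 0.68 without mouse 28. The summed endothelial markers of mouse 28 were 182 CPM, against 118 to 213 CPM in the controls, and their part in the Selp value was not tested. Sele, the selectin made by activated endothelium, had 54, 3, 8 and 15 counts in Ripk1-hepKO and 8, 6, 4 and 4 counts in Ripk1-Con, too few for the test.

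Of the cytokines, Csf1 and Il1a had separate groups with all mice included and kept most of their difference without mouse 28. Csf1, the growth factor of macrophages (ENSMUSG00000014599, chromosome 3, 107741048 to 107760469, minus strand), had 15.2, 15.4, 19.4 and 22.3 CPM in Ripk1-hepKO livers, against 13.6, 12.5, 12.4 and 10.5 CPM in Ripk1-Con livers. Here mouse 28 was the lowest of its group and not the highest. The log2 fold change was 0.56 ± 0.15 (SE; 95% interval 0.21 to 0.91; edgeR adjusted p = 0.742), and 0.64 without mouse 28. Il1a, an alarmin cytokine (ENSMUSG00000027399, chromosome 2, 129299610 to 129309972, minus strand), had 6.34, 3.93, 4.23 and 3.97 CPM in Ripk1-hepKO and 2.51, 2.73, 1.99 and 3.21 CPM in Ripk1-Con. The groups did not overlap, and the log2 fold change of 0.82 ± 0.23 (edgeR adjusted p = 0.742) was 0.63 without mouse 28.

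Il1b and its antagonist Il1rn had their highest levels in the same mouse. Il1b, the inflammasome-processed IL-1 (ENSMUSG00000027398, chromosome 2, 129364570 to 129371139, minus strand), had 19.4, 3.04, 3.08 and 2.89 CPM in Ripk1-hepKO, against 2.57, 2.23, 1.33 and 1.95 CPM in Ripk1-Con. The groups did not overlap, but 3 Ripk1-hepKO livers lay just above the controls and mouse 28 far above all. The log2 fold change, 1.82 ± 0.67 (SE; 95% interval 0.30 to 3.33; edgeR adjusted p = 0.742), was 0.57 without mouse 28. Il1rn, which encodes the IL-1 receptor antagonist (ENSMUSG00000026981, chromosome 2, 24336853 to 24351494, plus strand), had 68.9, 14.6, 11.3 and 16.6 CPM in Ripk1-hepKO and 23.4, 31.6, 8.34 and 18.7 CPM in Ripk1-Con. In contrast to Il1b, Ripk1-hepKO mice 34, 37 and 39 lay within the control range. Its log2 fold change of 0.44 ± 0.61 (edgeR adjusted p = 0.902) was -0.54 without mouse 28, and -0.80 without mice 28 and 40, which held its highest and its lowest level. Il18, an IL-1 family cytokine, averaged 6.05 ± 2.37 CPM in Ripk1-hepKO and 4.33 ± 0.680 CPM in Ripk1-Con (SD, n = 4 each; log2 fold change 0.48 ± 0.27, edgeR adjusted p = 0.770), and its log2 fold change was 0.18 without mouse 28.

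Of the 3 enzymes Sod2 alone could be tested, and it and Tnfaip2 lay near or below 0 without mouse 28. Sod2, the mitochondrial superoxide dismutase (ENSMUSG00000006818, chromosome 17, 13006846 to 13040063, plus strand), had 351, 149, 150.3 and 164 CPM in Ripk1-hepKO livers and 152, 147, 137 and 140.5 CPM in Ripk1-Con livers. Of the other 3 Ripk1-hepKO livers, mice 34 and 37 lay within the narrow control range and mouse 39 just above it. On the log2 scale the difference was 0.50 ± 0.27 (edgeR adjusted p = 0.769), and 0.10 without mouse 28. Nlrp3, the inflammasome sensor (ENSMUSG00000032691, chromosome 11, 59541568 to 59566956, plus strand), had 3.08, 1.53, 1.14 and 1.62 CPM in Ripk1-hepKO and 1.25, 1.31, 0.531 and 1.33 CPM in Ripk1-Con. Mouse 28 was the highest and mouse 40 the lowest, and the log2 fold change was 0.73 ± 0.39 (edgeR adjusted p = 0.769), or 0.36 without mouse 28. Tnfaip2, a TNF-induced gene of endothelium and myeloid cells (ENSMUSG00000021281, chromosome 12, 111442469 to 111455018, plus strand), had 53.1, 16.2, 15.0 and 21.9 CPM in Ripk1-hepKO and 25.2, 16.8, 11.2 and 29.4 CPM in Ripk1-Con; without mouse 28 its log2 fold change of 0.36 ± 0.45 (edgeR adjusted p = 0.885) turned to -0.22. Irf1, a transcription factor that both interferons and NF-κB induce, ranged from 18.2 to 26.7 CPM in Ripk1-hepKO and from 16.0 to 31.6 CPM in Ripk1-Con (log2 fold change -0.12 ± 0.20, edgeR adjusted p = 0.916), and mouse 28 was the lowest of its group.

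The remaining genes had too few counts for the test. Il6, the main inducer of the acute phase, had 19, 0, 3 and 9 counts in Ripk1-hepKO livers and 0, 8, 0 and 0 counts in Ripk1-Con livers. Lif, a cytokine of the IL-6 family, had 31, 0, 0 and 5 counts in Ripk1-hepKO, against 0, 0, 0 and 4 in Ripk1-Con, and Osm, a cytokine of the same family, had 23, 3, 6 and 3 counts, against 0, 4, 0 and 6. For these 3 cytokines mouse 28 held the most counts. Ptgs2, the inducible cyclooxygenase, had 6, 0, 0 and 8 counts in Ripk1-hepKO and 0, 4, 0 and 0 in Ripk1-Con, and Nos2, the inducible nitric oxide synthase, 0, 0, 2 and 10 counts, against 4, 10, 0 and 3. A count of 0 allows up to 3 counts, which is 0.0542 to 0.0836 CPM in the Ripk1-hepKO libraries and 0.0485 to 0.0996 CPM in the Ripk1-Con libraries, counting error only. These 5 genes fell under the filter, so a difference between the genotypes was not tested for them in the main fit.

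Taking the median of each role group within a mouse set the groups side by side. Relative to the mean of the controls on the log2 scale, the 5 cytokines tested stood at 1.22, 0.33, 0.59 and 0.50 in Ripk1-hepKO and at 0.15, 0.16, -0.33 and -0.01 in Ripk1-Con. The 5 ubiquitin and TRAF genes stood at 0.54, 0.37, 0.14 and 0.58 in Ripk1-hepKO and at 0.00, -0.01, -0.16 and 0.07 in Ripk1-Con, and in both of these role groups every Ripk1-hepKO liver lay above every control. For the 5 subunits the values were 0.99, 0.51, -0.08 and 0.28 in Ripk1-hepKO and -0.13, 0.07, 0.09 and 0.03 in Ripk1-Con. For the 6 IκB family genes they were 0.65, 0.13, 0.25 and -0.02, against 0.01, 0.32, -0.23 and -0.10, so both role groups overlapped. The 3 adhesion genes stood at 1.16, 0.48, 0.34 and 0.52 in Ripk1-hepKO and at -0.08, 0.41, -0.25 and 0.29 in Ripk1-Con, and the 3 other targets at 1.35, -0.23, 0.10 and 0.17, against 0.38, 0.10, -0.74 and 0.28, and these overlapped too. Mouse 28 had the highest median in 5 of the 6 role groups with at least 2 tested members, the exception being the ubiquitin and TRAF genes, where mouse 39 was highest. No test was made of these medians, since their members were chosen with results of these data known.

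**Figure D4:**
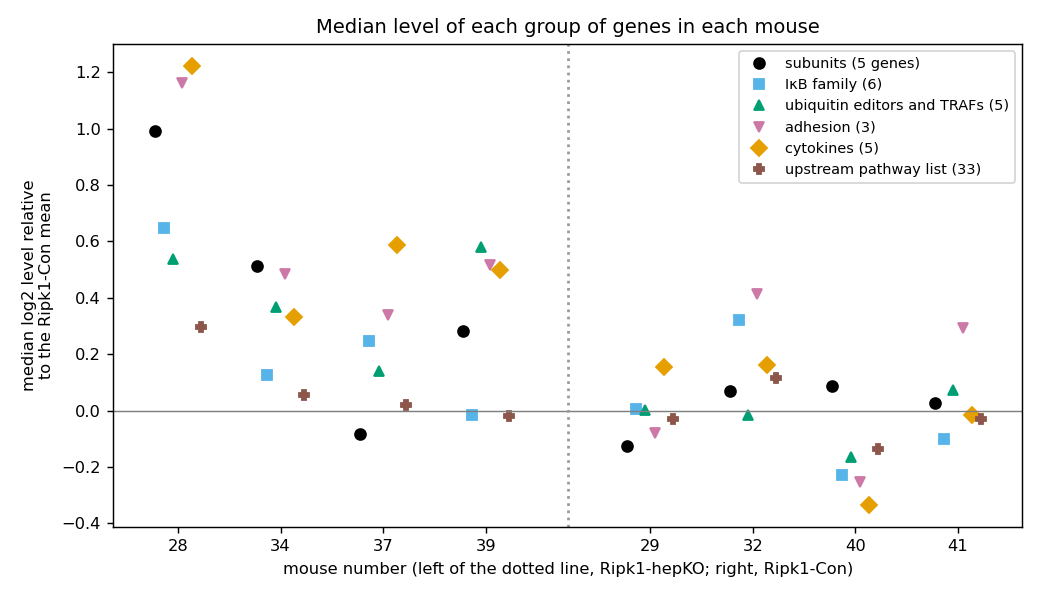
Median log2 level of each role group of NF-κB genes, and of the upstream pathway list, relative to the mean of the Ripk1-Con livers (vertical axis), in each mouse (horizontal axis, Ripk1-hepKO left of the dotted line and Ripk1-Con right). The cytokine and the ubiquitin and TRAF medians of all Ripk1-hepKO mice lie above those of all Ripk1-Con mice, mouse 28 is highest in 4 of the 5 role groups drawn, and the upstream list lies between -0.14 and 0.30, with mouse 28 again the highest.

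Ratios of counts within a library need no scaling between libraries, and some set the members apart from each other. The ratio of Nfkb2 to Nfkb1 counts was 0.397, 0.308, 0.321 and 0.415 in Ripk1-hepKO livers, against 0.185, 0.265, 0.281 and 0.245 in Ripk1-Con livers. The groups did not overlap. The ratio of the antagonist Il1rn to Il1b was 3.54, 4.80, 3.66 and 5.74 in Ripk1-hepKO and 9.13, 14.2, 6.28 and 9.60 in Ripk1-Con. Again the groups did not overlap, and mouse 28 did not stand apart from its group. The ratio of Il1rn to Il1a did overlap, at 10.9, 3.71, 2.67 and 4.17 in Ripk1-hepKO and 9.34, 11.6, 4.18 and 5.83 in Ripk1-Con. Birc3 to Nfkbia gave 0.780, 0.536, 0.370 and 0.552 in Ripk1-hepKO and 0.272, 0.288, 0.350 and 0.356 in Ripk1-Con, without overlap. Ratios of Tnfaip3 to Nfkbia, Nfkb2 to Rel, Rela to Rel and Relb to Rela overlapped. The 3 ratios printed above without overlap were chosen after their values had been seen and carry no test. Of all 378 pairs of tested members, 29 (7.67%) had ratios that did not overlap between the groups. The share was 3.93% for the pairs of the 14913 tested genes with a count in every library. Of the 29 pairs, 10 held Rel and 6 held Nfkbia. A ratio does not show which of its genes differed.

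**Figure D5:**
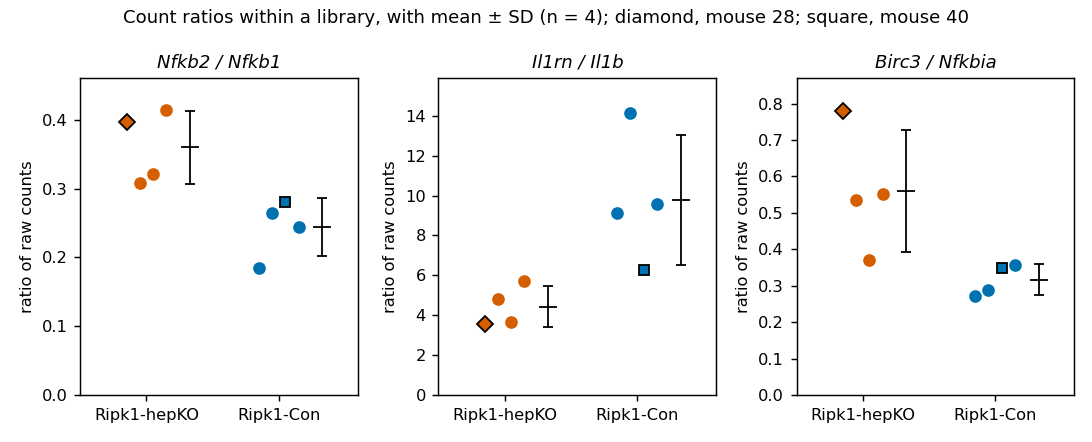
Ratio of raw counts (vertical axis, from 0) of Nfkb2 to Nfkb1, Il1rn to Il1b and Birc3 to Nfkbia in each liver, Ripk1-hepKO left and Ripk1-Con right, with mean ± SD of 4 livers. The groups do not overlap in these 3 ratios, Ripk1-hepKO being higher in Nfkb2 to Nfkb1 and Birc3 to Nfkbia and lower in Il1rn to Il1b.

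Genes upstream of NF-κB were looked at on a further list. On that list of 34 ligands, receptors, adaptors and kinases of the pathway, 33 were tested, 0 passed in edgeR, 22 lay above 0 (51.8% of all genes did) and the median log2 fold change was 0.05. With an unadjusted p under 0.05, 3 genes of this list were higher, against 3.86% of all genes, and 0 lower, against 2.82%. In 2 genes every Ripk1-hepKO liver lay above every Ripk1-Con liver, against 2.01% of all genes. Without mouse 28, 16 of the 33 lay above 0, against 50.7% of all genes, and the median was -0.01. The median level of the list was highest in mouse 28, at 0.30 on the log2 scale relative to the controls. The 2 genes with the smallest p among those below 0 were Map3k7, the kinase TAK1, at 38.3 to 42.6 CPM in Ripk1-hepKO and 41.2 to 48.3 CPM in Ripk1-Con (log2 fold change -0.14 ± 0.09, edgeR adjusted p = 0.779), and Il1rap, the shared chain of the IL-1 receptor, at 82.8 ± 10.1 against 91.6 ± 7.43 CPM. In the other direction, Tlr2, a receptor of bacterial lipoproteins, had 12.9, 7.33, 3.92 and 12.1 CPM in Ripk1-hepKO and 3.34, 3.59, 2.16 and 2.80 CPM in Ripk1-Con, and was the 1 gene of the list that DESeq2 called (DESeq2 adjusted p = 0.0260; edgeR adjusted p = 0.742). Traf2, the adaptor that brings cIAPs to the receptor, had 10.2, 10.2, 10.04 and 13.1 CPM in Ripk1-hepKO and 7.82, 8.71, 9.10 and 7.77 CPM in Ripk1-Con, without overlap. Tnf itself, the ligand, stood at 0.491 ± 0.164 CPM in Ripk1-hepKO and 0.296 ± 0.242 CPM in Ripk1-Con (SD, n = 4 each), and the groups overlapped.

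A list of 28 further NF-κB targets held genes that are not members. Of these 20 were tested, 0 passed in edgeR, and 18 lay above 0 (51.8% of all genes did). With an unadjusted p under 0.05, 6 were higher, against 3.86% of all genes, and 1 was lower, against 2.82%. In 1 gene every Ripk1-hepKO liver lay above every Ripk1-Con liver, against 2.01% of all genes. Without mice 28 and 40, 2 were higher with an unadjusted p under 0.05, against 4.67% of all genes. The median log2 fold change was 0.69, or 0.37 without mouse 28. Saa3, the serum amyloid A of macrophages and adipose tissue, had 26.1, 11.8, 10.9 and 28.5 CPM in Ripk1-hepKO and 7.27, 7.74, 2.06 and 3.90 CPM in Ripk1-Con, without overlap, and was the 1 gene of this list that DESeq2 called (DESeq2 adjusted p = 0.0309; edgeR adjusted p = 0.742). DESeq2 gave no adjusted p for Ier3, whose log2 fold change was 2.75 ± 0.92 (edgeR adjusted p = 0.742), or 0.94 without mouse 28. Cxcl2, a chemokine for neutrophils, had 1.67, 0.362, 0.257 and 1.05 CPM in Ripk1-hepKO and 0.200, 0.145, 0.266 and 0.142 CPM in Ripk1-Con. Gadd45b, a stress gene that NF-κB induces to restrain JNK, stood lower, at 2.86, 3.18, 4.48 and 5.61 CPM in Ripk1-hepKO and 4.74, 9.29, 7.87 and 6.93 CPM in Ripk1-Con (log2 fold change -0.84 ± 0.27, edgeR adjusted p = 0.742). Cflar, the inhibitor of caspase-8, stood at 104 ± 15.6 CPM in Ripk1-hepKO and 119 ± 18.3 CPM in Ripk1-Con.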

How the data were processed

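Liver RNA of 8 ethanol-fed mice was extracted with TRIzol, selected for polyadenylated RNA, marked for strand with dUTP and read from both ends at 150 bp, per the labels' protocols. The deposited table holds raw, whole-number counts per Ensembl gene. Per the submitters' processing notes the build was GRCm38.p6 and the tools included DESeq2 1.38.1, StringTie 2.2.1, FastQC 0.11.5 and STAR 2.5.2b, without role or order. Which of them counted, on which annotation and with what use of strand, is not given in the sources used here, so reads of the 13 members that overlap a gene on the opposite strand could be shared with it.

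Symbols, positions and exon lengths came from GENCODE M21 (GRCm38), which matched 55154 gene IDs and not 181. Counts were filtered (filterByExpr), scaled by TMM and tested by genotype over all 8 libraries with the robust quasi-likelihood test of edgeR 4.0.16 in R 4.3.3, with Benjamini-Hochberg adjustment over 15234 genes. The test was checked on simulated data. SEs derive from the quasi-likelihood F. Alternatives were scaling by library size alone or by size factors of DESeq2, no filter, 1 CPM in 4 libraries, protein-coding genes, the Wald test of DESeq2 1.42.0, limma 3.58.1 voom with and without quality weights, edgeR without its robust option, and mice left out. Levels per mouse by role use log2(CPM + 0.25).

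Members, lists and the leaving out of mice 28 and 40 were chosen with earlier results of these data known. The naming rule gives values in every mouse for 14 canonical members and the 2 of smallest p per role, and the 2 of smallest p in each direction for the other pathway lists. Irf1 (in a figure), Tnf, Ier3 and the ratios are outside it.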

Additional observations from a re-analysis of the deposited data

Results flagged for a closer look

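In 13 of 68 combinations of a member and a genotype, 1 liver stood apart from the other 3 of its group by more of the group's range than Dixon's 95% critical value allows. Chance gives about 1 in 20, or 3.4, if values are normal and independent, which members that share mice are not. Among tested genes, 7 of 28 members (25%) passed that value in Ripk1-hepKO, against 8.33% of all genes, and 2 of 28 (7.14%) in Ripk1-Con, against 5.95%. Mouse 28 was the high liver for 3.87% of all genes. In 8 of the 13 the liver was that of Ripk1-hepKO mouse 28, and always on the high side. There Nfkbib stood at 34.6 CPM (others of the group 12.6 to 15.8), Icam1 at 49.0 CPM (27.6 to 31.2), Selp at 8.27 CPM (2.15 to 2.24), Il1b at 19.4 CPM (2.89 to 3.08), Il1a at 6.34 CPM (3.93 to 4.23), Il1rn at 68.9 CPM (11.3 to 16.6), Sod2 at 351 CPM (149 to 164) and Lif at 0.568 CPM (0 to 0.0902). In the Ripk1-Con group, Bcl3 stood at 48.0 CPM in mouse 32 (others 13.8 to 17.2) and Nlrp3 at 0.531 CPM in mouse 40 (others 1.25 to 1.33). Near the floor, Il6 (0.129 CPM) and Ptgs2 (0.0647 CPM) had counts in control mouse 32 alone, and Lif (0.0950 CPM) in control mouse 41 alone, where 3 zeros make any count pass.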

How the results depend on the processing

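No paired analysis was possible because no mouse number occurs in both genotypes. With 1 mouse left out in turn, 0 genes passed in edgeR, and 9 to 14 members had an unadjusted p under 0.05. Between 22 and 25 members lay above 0, and the member median ran from 0.31 to 0.61. Leaving out Ripk1-hepKO mouse 28 gave the lowest median. In that fit 2.70% of all genes were higher with an unadjusted p under 0.05, and 50.7% lay above 0. For the other mice left out singly, the shares of all genes were not computed. The DESeq2 Wald test called 36 genes in all, 1 on the upstream list and 1 on the further target list, where edgeR called 0. Without mice 28 and 40, 7 members had an unadjusted p under 0.05 (against 11). Of these, 5 were higher, against 4.67% of all genes, and 2 were lower, against 4.82%. In the same fit the IκB median was 0.10 and the further target median 0.20. There 13 of the 33 upstream genes lay above 0, against 50.7% of all genes. Scaled by library size alone, 9 members had groups that did not overlap (against 6). No share of all genes was computed under that scaling, so whether the rise is particular to the members was not tested. With no filter the adhesion median was 1.05 and the cytokine median 1.24, since genes of few counts enter; with 1 CPM in 4 libraries the ubiquitin and TRAF median was 0.53.

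Single log2 fold changes that changed sign were those of Nfkbia (0.001 without control mouse 32), Nfkbid (-0.038 without mice 28 and 40), Irf1 (0.026 without mouse 29, lowest -0.27), Nfkbiz (0.07, 0.14 and 0.19 without mouse 34, 39 or 32, and -0.33 without mouse 28), Il1rn (-0.32 in voom with quality weights, -0.54 without mouse 28, -0.80 without mice 28 and 40, at most 0.73 with 1 mouse left out), Tnfaip2 (-0.22, -0.22 and -0.42 under the same settings, at most 0.58) and Traf1, which lies at 0 (-0.002 with protein-coding genes alone, -0.12 in voom with quality weights, -0.19 without mice 28 and 40, and -0.24 to 0.28 with 1 mouse left out). Beyond the settings named, the cause was not tested. Depth limits the 6 genes under the filter, and Traf1 (8 to 39 counts a library) and Nfkbid (13 to 52 counts) were thinly counted.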
